A study of Mus musculus with 8 samples.

Results

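The mouse genes named Zfp followed by a number encode zinc finger proteins, most of them DNA-binding proteins with rows of C2H2 fingers. The 220 genes described here were selected on their symbol, leaving out Zfp36, and on a mean of at least 5 CPM (the gene's count scaled to its library's total, before any further normalization) over all 8 libraries. Levels given later are CPM after TMM scaling, which evens out library composition. Unscaled CPM is used for values set against the limit, for abundance classes and for CPM per kilobase. The 220 come from 373 Zfp genes among 54532 gene identifiers. The other 153 Zfp genes lay under the limit, 9 of them with no count in any library. Just inside the limit, Zfp59, Zfp14 and Zfp964 averaged 5.24, 5.25 and 5.3 CPM, and just outside it Zfp189, Zfp619 and Zfp677 averaged 4.98, 4.9 and 4.76 CPM. All 220 selected genes passed the filter on low counts and were tested. The 4 genes put forward as markers of the group, Zfp866, Zfp60, Zfp748 and Zfp719, were all among them.

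RNA was sequenced from whole lens capsule preparations of wild-type C57BL/6 mice, 6 to 8 weeks old, 7 days after surgery. The 4 ASC libraries came from an injury-induced model of fibrotic cataract, in which a 26-gauge needle passed through the cornea opened the front of the lens capsule. The 4 sham libraries came from mice whose cornea was cut while the capsule was left whole. Both groups therefore share the corneal wound, and no group without surgery is part of the comparison. The submitters describe the replicates as biological, and the number of capsules or animals behind each library is not stated.

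Zinc finger proteins read DNA through tandem C2H2 fingers, short loops in which a pair of cysteines and a pair of histidines hold a zinc ion and each finger contacts a few neighbouring bases. Many also carry a KRAB box, a short N-terminal domain that binds the co-repressor Trim28 (KAP1), which brings the histone methyltransferase Setdb1 and heterochromatin proteins to the bound site. KRAB zinc finger proteins are best known for silencing transposable elements and for guarding imprinted genes, and their genes lie in clusters that grew by duplication. The SCAN domain, found in a smaller set, pairs zinc finger proteins with each other.

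The promoters of the 3 genes whose lower level in ASC held with any single library left out are shown first, followed by that of Zfp628, the gene with the highest log2 fold change of the 220. The sequences are RefSeq promoters on GRCm38.p6, from 250 bases before to 50 bases after the annotated start, written in the direction of the gene. Capitals mark the core of the ETS motif, CCGGAA on either strand.
Zfp866 (chr8:69774862-69775161, minus strand): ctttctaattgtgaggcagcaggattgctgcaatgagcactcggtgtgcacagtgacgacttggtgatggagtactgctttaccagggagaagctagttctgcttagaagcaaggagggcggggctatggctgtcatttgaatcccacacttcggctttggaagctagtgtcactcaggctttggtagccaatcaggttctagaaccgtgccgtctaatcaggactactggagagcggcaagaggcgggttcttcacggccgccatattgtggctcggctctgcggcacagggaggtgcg
Zfp60 (chr7:27731159-27731458, plus strand): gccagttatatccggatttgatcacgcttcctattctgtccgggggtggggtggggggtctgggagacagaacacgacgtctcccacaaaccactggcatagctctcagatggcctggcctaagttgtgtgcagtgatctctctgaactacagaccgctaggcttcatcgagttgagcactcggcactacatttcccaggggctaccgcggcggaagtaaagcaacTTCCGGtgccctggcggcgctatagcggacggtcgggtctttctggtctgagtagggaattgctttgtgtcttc
Zfp799 (chr17:32830212-32830511, minus strand): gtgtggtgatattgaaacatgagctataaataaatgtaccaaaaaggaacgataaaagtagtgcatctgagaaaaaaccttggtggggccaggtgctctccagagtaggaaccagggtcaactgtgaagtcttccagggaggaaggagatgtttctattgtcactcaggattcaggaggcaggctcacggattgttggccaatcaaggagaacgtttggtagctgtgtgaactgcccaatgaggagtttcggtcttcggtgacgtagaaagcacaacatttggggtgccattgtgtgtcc
Zfp628 (chr7:4914967-4915266, plus strand): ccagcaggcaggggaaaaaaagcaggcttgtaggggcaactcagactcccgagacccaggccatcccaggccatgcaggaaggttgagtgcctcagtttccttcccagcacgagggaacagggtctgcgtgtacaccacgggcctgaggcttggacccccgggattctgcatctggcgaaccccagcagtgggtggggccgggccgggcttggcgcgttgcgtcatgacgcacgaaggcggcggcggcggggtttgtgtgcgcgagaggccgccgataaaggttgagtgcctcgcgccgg
The ETS core stands in the Zfp60 window alone of these 4. The Zfp628 window had the highest GC content of the 4, 66% against 54.7% for Zfp866, 56.3% for Zfp60 and 47% for Zfp799.

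Library totals lay between 14638645 and 19067642 counts in ASC and between 14420494 and 21141582 counts in sham. The lens origin of the preparation showed in summed lens epithelium markers (such as Pax6, Foxe3 and Cryaa) of 122264 to 189999 CPM in ASC and 117790 to 176262 CPM in sham, and 1 of the 7, Mab21l1, was called lower. Other cell types were present in both groups, and no listed marker was at 0 in all libraries. Red cell markers, all 5 tested, summed to 73.9 to 370 CPM in ASC and 40.1 to 62.8 CPM in sham, ranges that do not overlap, although none of the 5 passed the test. Lens fibre markers summed to 31935 to 93281 CPM in ASC and 26014 to 51471 CPM in sham, with Cryge and Cryga higher among 14 tested. The 7 pigment cell markers summed to 181 to 656 CPM in ASC and 89.2 to 255 CPM in sham with none past the threshold, and the corneal keratins Krt5 and Krt12 were higher among 6 tested corneal markers, whose sums were 364 to 966 CPM in ASC and 395 to 615 CPM in sham. Retinal markers (8 tested, sums of 2083 to 3945 CPM in ASC and 1067 to 4423 CPM in sham), leukocyte markers (7 tested, 15.4 to 47.9 CPM in ASC and 9.18 to 28.3 CPM in sham) and endothelial markers (3 tested, 4.15 to 13.1 CPM in ASC and 5.28 to 16.2 CPM in sham) had none past the threshold. In bulk RNA of this kind, fewer cells of a type and less RNA per cell cannot be told apart.

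Setting ASC against sham asks how expression changes when the capsule itself is injured. Among the 220 expressed Zfp genes, 12 fell in ASC and none rose (edgeR quasi-likelihood test, Benjamini-Hochberg adjusted p under 0.05 over all 15857 genes tested). Of all genes tested, 0.391% were called lower and 0.631% higher, and of the 10714 with a mean of at least 5 CPM, 0.523% were called lower. The 12 made up 19.4% of the 62 genes called lower, while the 220 are 1.39% of the genes tested. Before adjustment, 96 of the 220 were lower and 2 higher at p under 0.05, beside 7.9% lower and 6.82% higher of all genes. All 4 ASC libraries lay below all 4 sham libraries for 76 of the 220 (34.5%), beside 5.67% of all genes, and above them for 1 (Zfp628), beside 3.39%.

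The shift ran through most of the group at a small size. The log2 fold change of ASC over sham was negative for 178 of the 220 (80.9%), beside 48.6% of all genes tested and 49.6% of those at a mean of at least 5 CPM. Its median was -0.245 (quartiles -0.417 and -0.067), with a range from -1.19 to 0.57, beside medians of 0.008 and 0.002 in the same background sets. The genes were chosen with earlier results of these data known, so these counts and medians are descriptions and carry no test of the group as a whole. With library totals alone as the scaling, the median of all genes itself moved to -0.116 and the median of the group minus that of all genes was -0.263.

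**Figure D1:**
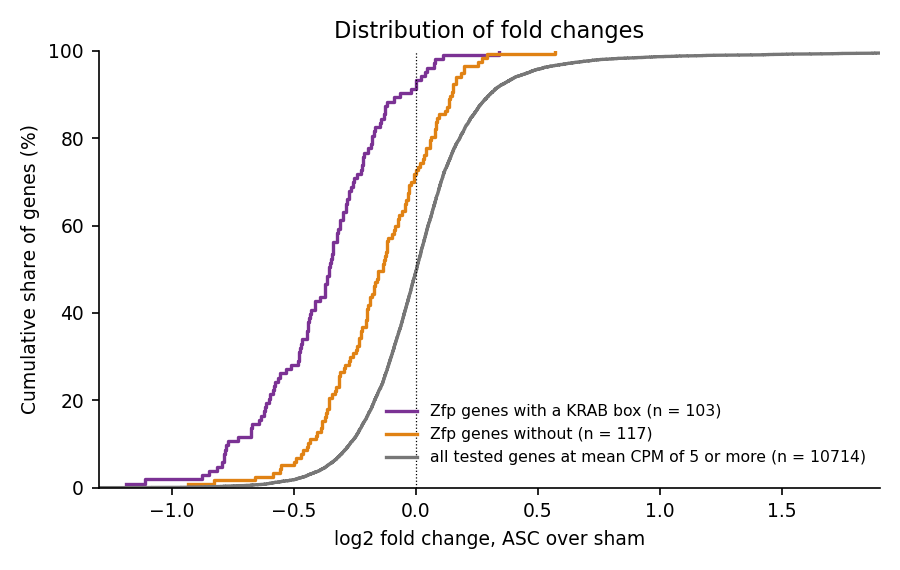
Cumulative share of genes (vertical axis, %) against the log2 fold change of ASC over sham (horizontal axis) for Zfp genes with a KRAB box (103), Zfp genes without one (117) and all tested genes at a mean of at least 5 CPM (10714; a few lie beyond the right edge). The curve of the KRAB genes lies left of the others, with 91.3% of its genes under 0, against 71.8% of the Zfp genes without KRAB and 49.6% of the background.

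Zfp866 (ENSMUSG00000043090), on chromosome 8, encodes a protein with a KRAB box and 12 fingers and changed the most. It had 12.1, 14.8, 13.6 and 11.4 CPM in ASC, against 27.0, 33.6, 30.2 and 27.8 CPM in sham. The highest ASC library stood far below the lowest sham library. The log2 fold change was -1.19 (SE 0.12, 95% interval -1.44 to -0.94, edgeR adjusted p = 0.000427), a 2.28-fold lower level, and no other expressed Zfp gene past the threshold fell 2-fold except Zfp748.

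Zfp60 (ENSMUSG00000037640) on chromosome 7, a KRAB protein with 19 fingers, had 18, 18.7, 21.1 and 20.7 CPM in ASC and 34.1, 37.8, 33.6 and 32.7 CPM in sham. Both groups were tight and far apart, at 19.6 ± 1.5 CPM in ASC and 34.6 ± 2.22 CPM in sham (SD, n = 4 each), a log2 fold change of -0.82 (SE 0.10, edgeR adjusted p = 0.00204). Zfp799 (ENSMUSG00000095253) on chromosome 17, with KRAB and 17 fingers, had 10.6, 13.5, 11.6 and 13.7 CPM in ASC against 22.7, 21.6, 20.1 and 20.9 CPM in sham (log2 fold change -0.79, SE 0.11, edgeR adjusted p = 0.00611). Zfp866, Zfp60 and Zfp799 were the only ones of the 12 that passed with any 1 of the 8 libraries left out, at adjusted p of up to 0.00258, 0.00861 and 0.0317.

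Zfp748 (ENSMUSG00000095432) on chromosome 13, a KRAB protein with 23 fingers, a number that no KRAB member exceeds, had 5.36, 5.92, 4.45 and 4.25 CPM in ASC against 9.41, 14.7, 11.3 and 7.59 CPM in sham. The sham libraries were spread widely (SD 3.04 CPM), and the log2 fold change of -1.11 had an SE of 0.21 (edgeR adjusted p = 0.0327). Zfp719 (ENSMUSG00000030469) on chromosome 7, with KRAB and 13 fingers, had 5.61, 6.57, 5.03 and 5.94 CPM in ASC against 10.6, 11.9, 9.4 and 9.9 CPM in sham (log2 fold change -0.85, SE 0.15, edgeR adjusted p = 0.0234). For both genes the groups stayed apart. Zfp760 (ENSMUSG00000067928) on chromosome 17, with KRAB and 17 fingers, had 9.88, 8.36, 8.74 and 6.88 CPM in ASC against 15.5, 15.2, 13.1 and 14.3 CPM in sham (log2 fold change -0.78, SE 0.14, edgeR adjusted p = 0.0234). Zfp84 (ENSMUSG00000046185) on chromosome 7, with KRAB and 12 fingers, had 9.06, 8.04, 7.06 and 6.95 CPM in ASC against 11.9, 15.2, 13.9 and 12.7 CPM in sham (log2 fold change -0.79, SE 0.14, edgeR adjusted p = 0.0243). The distance between the nearest ASC and sham libraries was narrower for Zfp760 and Zfp84 than for Zfp866 or Zfp60. Zfp120 (ENSMUSG00000068134) on chromosome 2, with KRAB and 9 fingers, had 5.04, 5.54, 6.13 and 5.87 CPM in ASC against 8.89, 9.71, 9.74 and 10.9 CPM in sham (log2 fold change -0.79, SE 0.15, edgeR adjusted p = 0.028). Zfp111 (ENSMUSG00000087598) on chromosome 7, with KRAB and 14 fingers, had 7.4, 7.77, 7.41 and 6.14 CPM in ASC against 12.5, 11.6, 11.3 and 10.3 CPM in sham (log2 fold change -0.67, SE 0.14, edgeR adjusted p = 0.0402).

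Zfp110 (ENSMUSG00000058638) on chromosome 7, known as NRIF, a protein that binds the p75 neurotrophin receptor, carries KRAB and SCAN patterns and 6 fingers. It had 19.9, 18.7, 24 and 21.3 CPM in ASC against 28.5, 28.7, 29.1 and 30 CPM in sham, the smallest change of the 12 (log2 fold change -0.47, SE 0.10, edgeR adjusted p = 0.0452). The remaining pair held no KRAB pattern. Zfp397 (ENSMUSG00000024276), with a SCAN pattern and 10 fingers, had the highest CPM of the 12 in sham, with 26.8, 28.2, 26.4 and 20.2 CPM in ASC against 43, 41.9, 43.1 and 32.5 CPM in sham (log2 fold change -0.66, SE 0.13, edgeR adjusted p = 0.0328). The fourth library was the lowest in both groups. Zfp41 (ENSMUSG00000047003) on chromosome 15, a short protein of 198 residues with 4 fingers, had 12.9, 10.9, 10.8 and 11.7 CPM in ASC against 17.2, 19.1, 17 and 16.2 CPM in sham (log2 fold change -0.58, SE 0.11, edgeR adjusted p = 0.0327).

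**Figure D2:**
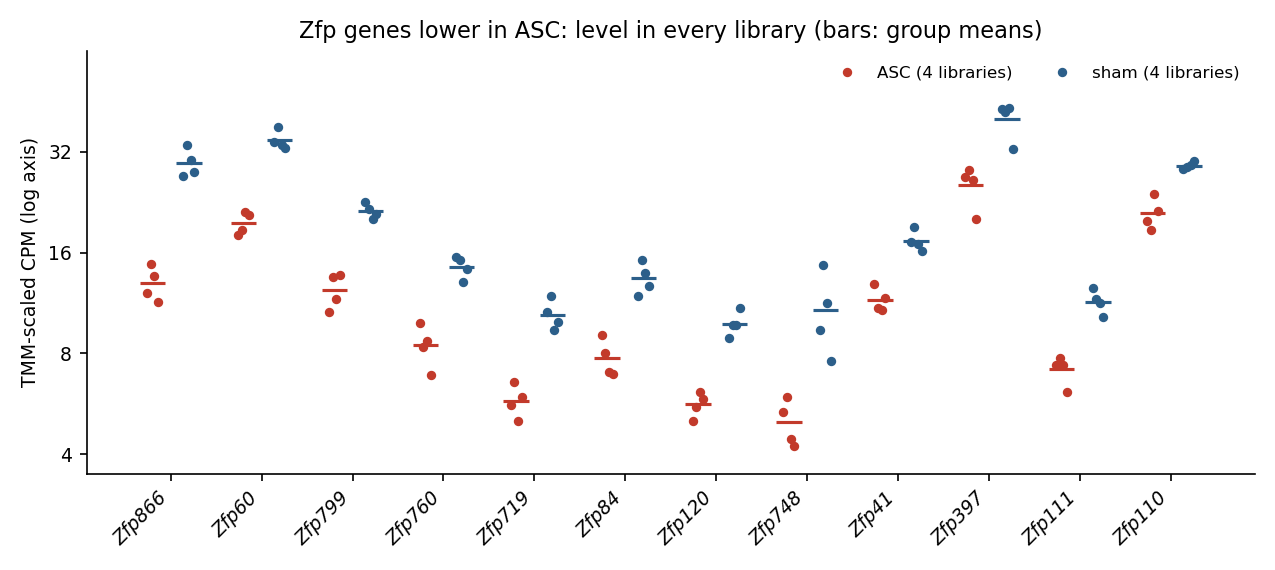
Level of the 12 Zfp genes past the threshold in each library (TMM-scaled CPM, log axis), with the 4 ASC libraries left of the 4 sham libraries for each gene and bars at the group means. The ASC points lie below the sham points for each gene, from 13.0 against 29.7 CPM for Zfp866 to 21 against 29.1 CPM for Zfp110 (means).

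The calls of the other 9 did not hold with most single libraries left out, while their log2 fold changes stayed of like size. When each library was left out in turn, Zfp760 passed only without ASC 1, ASC 2 or sham 3, Zfp84 without ASC 1, ASC 2 or sham 1, Zfp719 without ASC 2 or sham 3, Zfp397 and Zfp748 without ASC 2 or sham 4, Zfp120 and Zfp111 without ASC 2, Zfp41 without ASC 1, and Zfp110 without ASC 3. When any other single library was left out, each lost its call, at adjusted p of up to 0.079 for Zfp760, 0.0865 for Zfp84, 0.0838 for Zfp719, 0.105 for Zfp397, 0.104 for Zfp748, 0.0812 for Zfp120, 0.11 for Zfp111, 0.107 for Zfp41 and 0.109 for Zfp110. Their log2 fold changes with 1 library left out ran from -0.86 to -0.70 for Zfp760, -0.87 to -0.73 for Zfp84, -0.92 to -0.79 for Zfp719, -0.75 to -0.57 for Zfp397, -1.24 to -0.93 for Zfp748, -0.84 to -0.74 for Zfp120, -0.72 to -0.61 for Zfp111, -0.64 to -0.54 for Zfp41 and -0.54 to -0.42 for Zfp110. The number of expressed Zfp genes called lower was 6, 13, 4 and 3 without ASC 1 to 4 in turn and 4, 3, 5 and 5 without sham 1 to 4. Over all genes, 101, 228, 72 and 67 were called in either direction in the first 4 of these fits and 79, 56, 109 and 67 in the others. DESeq2 called 36 of the 220 lower, beside 1.62% of all genes called lower, and 1 higher, Zfp628. With limma-voom 12 of the 220 were called lower, 11 of them shared with edgeR, beside 0.454% of all genes, and 0 higher. With the summed red cell marker level as a covariate, a choice made after the data were seen, none of the 220 was called, and 12 genes in all were called, in place of 62 lower and 100 higher. With the lens fibre or the pigment cell level as the covariate 2 were called, Zfp866 and Zfp60, among 65 and 37 genes called in all. The sign of the shift was the same in all 3 fits, with 172, 176 and 176 of the 220 negative and medians of -0.214, -0.236 and -0.268. The red cell levels of the groups do not overlap, so that level and the surgery cannot be told apart. The part of the corneal and other markers in the Zfp values was not tested.

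Just short of the threshold stood Zfp324 (log2 fold change -0.68, edgeR adjusted p = 0.0569) and Zfp629 (-0.56, edgeR adjusted p = 0.058), which did not pass and were picked with their values in view. Of the 5 most negative log2 fold changes, Zfp770 and Zfp994 did not pass either. Zfp770, a protein with 11 fingers and no KRAB pattern, had 4.34, 6.95, 6.31 and 3.58 CPM in ASC against 9.22, 9.2, 10.8 and 11.4 CPM in sham (log2 fold change -0.93, SE 0.21, edgeR adjusted p = 0.0611). Zfp994, a KRAB protein with 17 fingers, had 4.85, 2.44, 3.93 and 5.06 CPM in ASC against 7.49, 7.99, 6.34 and 8.04 CPM in sham (log2 fold change -0.88, SE 0.23, edgeR adjusted p = 0.0921). With the red cell level as a covariate, Zfp770 was at -0.32 and Zfp994 at -1.36. The groups do not overlap for either gene, and the spread among ASC libraries was wide relative to their level.

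Zfp628, which mouse spermatids need to mature, stood alone at the other end. It had 15.4, 16.7, 16.9 and 19.2 CPM in ASC against 13.7, 11.1, 10.8 and 10.3 CPM in sham. It was the single expressed Zfp gene with all ASC libraries above all sham libraries, and its log2 fold change of 0.57 (SE 0.13, 95% interval 0.29 to 0.85) missed the threshold in edgeR (adjusted p = 0.0595). The next highest values were 0.34 for Zfp688 (edgeR adjusted p = 0.45), the highest of the KRAB genes, 0.29 for Zfp532 (edgeR adjusted p = 0.304), 0.27 for Zfp703 (edgeR adjusted p = 0.473) and 0.26 for Zfp428 (edgeR adjusted p = 0.506), all with overlapping groups. With the pigment cell level as a covariate the value of Zfp703 was -0.02, and with the lens fibre level that of Zfp688 was -0.05.

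The members differed by domain. Translations of the annotated coding sequences held a KRAB A box pattern for 103 of the 220, a SCAN pattern without KRAB for 7, and neither for 110. A KRAB box that departs from the pattern is missed, and the share missed was not tested. Throughout the text and figures, genes without KRAB are therefore genes without a match to this pattern, and some may carry a KRAB box. The 103 KRAB genes had a median log2 fold change of -0.356 (quartiles -0.561 and -0.219) with 94 negative (91.3%), and the 117 without KRAB a median of -0.136 with 84 negative (71.8%). KRAB genes gave 10 of the 12 called falls (9.71% of the 103) and genes without KRAB 2 (1.71%), beside 0.391% of all genes. At unadjusted p under 0.05, 62 KRAB genes were lower and 0 higher, against 34 lower and 2 higher without KRAB. These are 60.2% and 29.1% lower, beside 7.9% lower and 6.82% higher of all genes. All ASC libraries lay below all sham libraries for 52 KRAB genes (50.5%) and for 24 without KRAB (20.5%), beside 5.67% of all genes. The 7 SCAN genes without KRAB had a median of -0.202. No test of the difference between the classes was made, since genes are not replicates.

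Summed over genes, KRAB transcripts came to 1265, 1242, 1354 and 1223 CPM in ASC against 1634, 1720, 1584 and 1554 CPM in sham. The highest ASC sum lay below the lowest sham sum, and the mean was 21.7% lower, at 1271 ± 57.9 CPM in ASC and 1623 ± 72.6 CPM in sham (SD, n = 4 each). The 117 genes without KRAB summed to 3327, 3348, 3236 and 3218 CPM in ASC against 3551, 3649, 3570 and 3424 CPM in sham, a mean 7.5% lower. These groups do not overlap either, and all 220 together were at 4553 ± 74.8 CPM in ASC and 5172 ± 160 CPM in sham, 12% lower.

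Finger number and KRAB go together, so both splits were combined. Across all members the median log2 fold change was -0.036 for the 30 with 0 to 3 fingers, -0.185 for the 67 with 4 to 9, -0.333 for the 77 with 10 to 14 and -0.388 for the 46 with 15 or more. Within KRAB genes the medians were -0.276 (23 genes), -0.352 (49) and -0.446 (29) for 4 to 9, 10 to 14 and 15 or more fingers, and all 29 in the last class were negative. Without KRAB they were -0.158 (44 genes), -0.229 (28) and -0.118 (17), with no steady order.

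**Figure D3:**
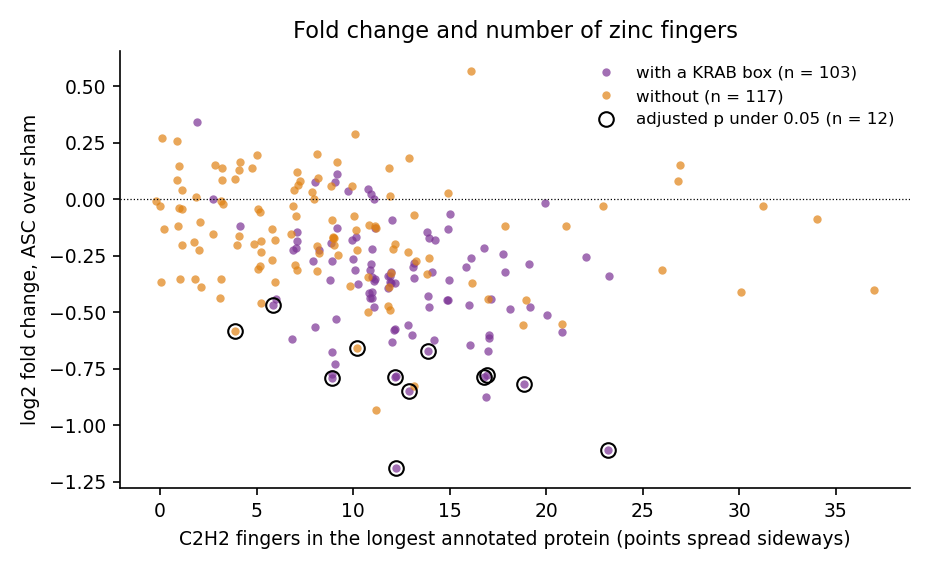
The log2 fold change of ASC over sham (vertical axis) against the number of C2H2 fingers in the longest annotated protein (horizontal axis; points are spread sideways) for 103 genes with a KRAB box and 117 without, with rings around the 12 past the threshold. Genes with few fingers scatter around 0, while KRAB genes with 15 or more lie under 0 throughout (29 of 29).

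The members' medians were also negative beside other genes of like abundance. At a mean of 5 to 10 CPM, 74 members had a median of -0.367 beside -0.018 for all genes of that level, at 10 to 20 CPM 68 members had -0.231 beside -0.025, at 20 to 50 CPM 63 members had -0.173 beside -0.003, and over 50 CPM 15 members had -0.117 beside 0.032. In the 3 lower classes, KRAB genes stood at -0.438, -0.301 and -0.33, against -0.235, -0.131 and -0.121 for members without KRAB.

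By library, the KRAB genes lay under their own means in ASC and above them in sham. The median deviation of the 103 KRAB genes from their own mean over the 8 libraries was -0.198, -0.217, -0.064 and -0.221 (log2 CPM) in ASC 1 to 4 and 0.22, 0.289, 0.147 and 0.13 in sham 1 to 4. ASC 3 thus stood nearest to 0 of the ASC libraries, and there KRAB genes lay no lower than genes without KRAB. KRAB genes below their own mean numbered 80, 91, 72 and 91 of 103 in ASC and 14, 5, 25 and 28 in sham. For genes without KRAB the medians were -0.074, -0.053, -0.067 and -0.053 in ASC and 0.104, 0.089, 0.077 and 0.039 in sham.

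**Figure D4:**
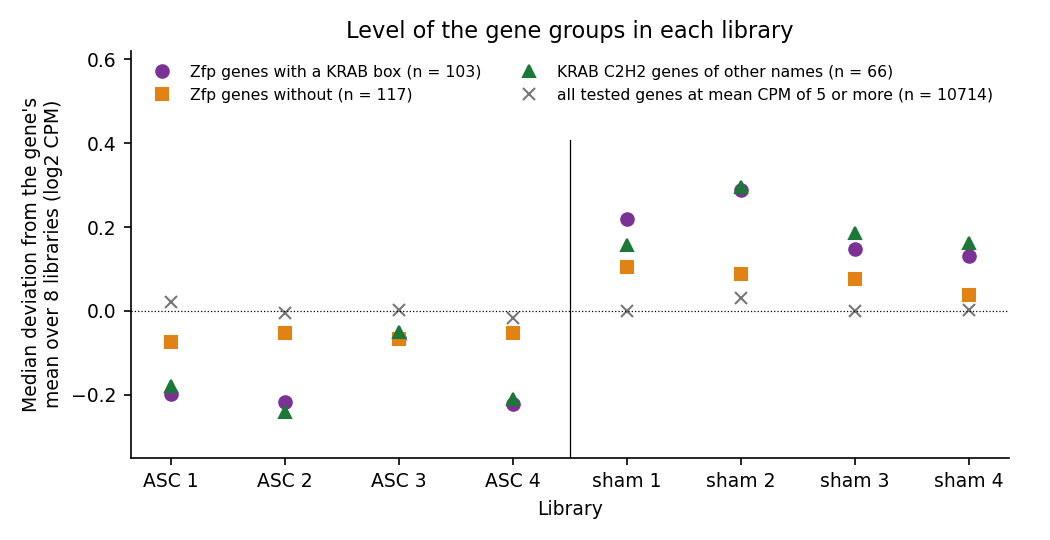
Median deviation of each gene group from the genes' own means over the 8 libraries (vertical axis, log2 CPM) in each library, ASC left of sham. KRAB Zfp genes (circles) and KRAB C2H2 genes of other names (triangles) lie under 0 in the ASC libraries and above 0 in the sham libraries, Zfp genes without KRAB (squares) lie closer to 0 except in ASC 3, where the groups coincide (-0.064 and -0.067), and all tested genes at a mean of at least 5 CPM (crosses) lie near 0.

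Genes outside the selection gave like values. The 103 tested Zfp genes under the level limit had a median log2 fold change of -0.349 with 85 negative (82.5%), and 0 were called by edgeR. At unadjusted p under 0.05, 23 of them were lower (22.3%) and 2 higher, beside 7.9% lower and 6.82% higher of all genes. Among 66 tested genes of other names whose translations held KRAB and C2H2 patterns, the median was -0.361 with 58 negative (87.9%). The only 1 called lower (1.52%, beside 0.391% of all genes) was Gm12258. It had 5.1, 3.69, 3.93 and 3.91 CPM in ASC against 9.46, 8.73, 10 and 9.15 CPM in sham, groups that lie well apart (log2 fold change -1.17, SE 0.16, edgeR adjusted p = 0.00546). The 66 summed to 392 ± 35.3 CPM in ASC and 471 ± 12.6 CPM in sham (SD, n = 4 each), 16.6% lower. The 185 tested C2H2 genes of other names without KRAB had a median of -0.071 with 109 negative (58.9%). Of these, 3 were called lower (1.62%) and 3 higher, beside 0.391% lower and 0.631% higher of all genes.

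Zfp genes lie in clusters, and neighbours in a cluster were read together. In the gene order of GENCODE mouse release 21, 9 runs held 5 or more members with at most 10 other protein-coding genes between neighbours. Their counts of negative genes stand beside 80.9% negative of all 220 and 91.3% of the KRAB members. The run on chromosome 8 from Zfp930 to Zfp866 had the lowest median, -0.58, with all 5 negative (-1.19 to -0.28). The run on chromosome 7 from Zfp84 to Zfp146 had all 11 negative (median -0.445), and that on chromosome 7 from Zfp606 to Zfp446, which holds Zfp110, all 5 (median -0.47). On chromosome 17, 7 of 8 genes from Zfp871 to Zfp414, among them Zfp799, and 12 of 15 from Zfp160 to Zfp13, all KRAB genes and among them Zfp760, were negative (medians -0.453 and -0.323). The 5 genes from Zfp560 to Zfp846 on chromosome 9 were negative as well (median -0.338). The runs with the most mixed signs were Zfp398 to Zfp775 on chromosome 6 (5 of 8 negative), Zfp553 to Zfp646 on chromosome 7 (4 of 7) and Zfp180 to Zfp428 on chromosome 7 (3 of 5, with Zfp111). Near-identical copies within a cluster can share reads, and how such reads were assigned is not stated, so the split between neighbours is uncertain.

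**Figure D5:**
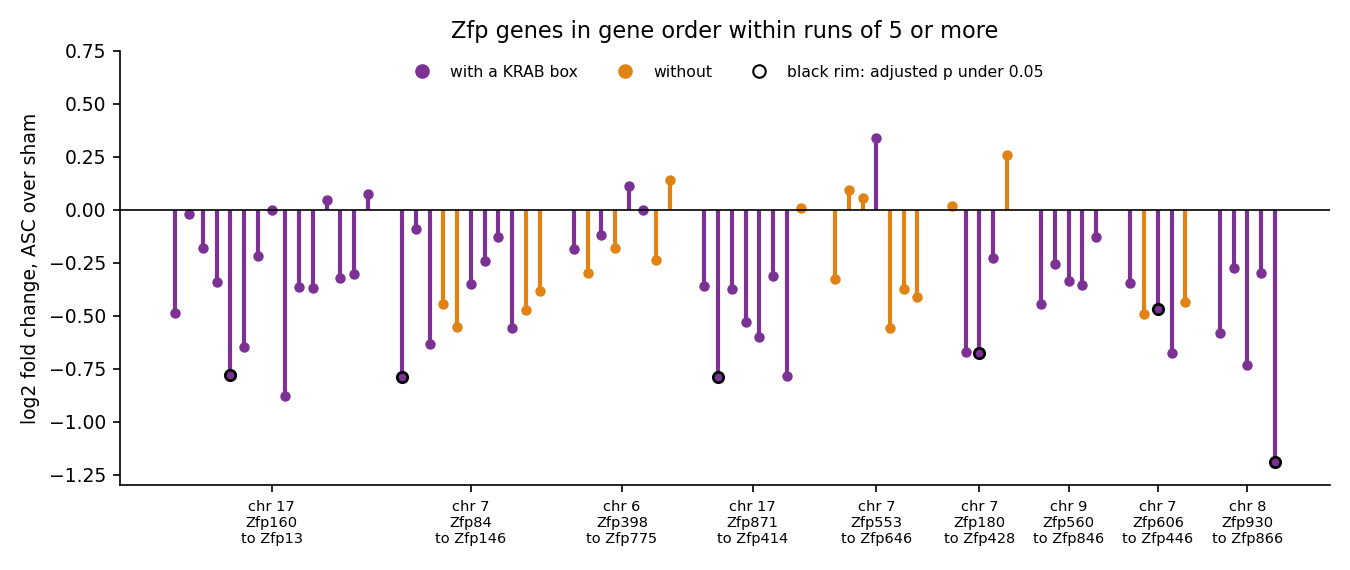
The log2 fold change of ASC over sham (vertical axis) for each Zfp gene in the 9 runs of neighbouring members, in gene order from left to right within a run (horizontal axis, not to scale), with colour for KRAB and a black rim for genes past the threshold. The run from Zfp930 to Zfp866 ends at -1.19. The runs that include Zfp13, Zfp777, Zfp688 and Zfp428 cross 0, as does, barely, the run that ends with Zfp414 (0.01).

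Not every neighbouring protein-coding gene could be tested, and those on both sides of Zfp120 and on 1 side of Zfp866, Zfp41, Zfp84 and Zfp719 were not. Atp13a1, next to Zfp866, had a log2 fold change of -0.1 (edgeR adjusted p = 0.669), Mapre2, next to Zfp397, 0.05 (edgeR adjusted p = 0.901), Top1mt, next to Zfp41, -0.19 (edgeR adjusted p = 0.658), and Gm10226, next to Zfp760, 0.51 (edgeR adjusted p = 0.706). Zfp60 lies between Zfp607b and Zfp626, which had -0.48 (edgeR adjusted p = 0.312) and -0.62 (edgeR adjusted p = 0.12). The other tested neighbours with a Zfp name were also negative, and none passed the threshold. They ran from -0.92 for Zfp658, next to Zfp719 (edgeR adjusted p = 0.137), to -0.09 for Zfp30, next to Zfp84 (edgeR adjusted p = 0.903).

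The Zfp genes with the best described roles were read as a list of their own. Of 29 Zfp genes listed for their known functions, 26 were expressed above the limit. Zfp503, Zfp57 and Zfp708 lay under it at means of 3.41, 0.477 and 0.0211 unscaled CPM. None of the 26 passed the threshold, the median was -0.108 and 16 were negative. The 8 at unadjusted p under 0.05 (30.8%) were all lower in ASC, beside 43.6% lower among the 220 and 7.9% of all genes. Zfp809, which silences murine leukaemia virus in embryonic cells, had 7.72, 6.24, 8.68 and 6.88 CPM in ASC against 12.5, 12.1, 10.4 and 10.3 CPM in sham (log2 fold change -0.62, SE 0.15, edgeR adjusted p = 0.0735). Zfp932, a repressor of endogenous retroviruses, had 14.8, 16.5, 19.8 and 12.8 CPM in ASC against 25.5, 22.9, 19.9 and 18.8 CPM in sham (log2 fold change -0.45, edgeR adjusted p = 0.187), with overlap between the groups. Zfp961 was at -0.48 (edgeR adjusted p = 0.21). With the red cell level as a covariate, Zfp932 was at -0.15 and Zfp961 at -0.17.

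Zfp638, a nuclear protein tied to silencing of unintegrated retroviral DNA through the HUSH complex, had 56.6, 44.4, 58.3 and 56.1 CPM in ASC against 62.6, 80.2, 71.7 and 66.9 CPM in sham (log2 fold change -0.39, edgeR adjusted p = 0.127). Zfp346, a protein that binds double-stranded RNA, had 17.4, 19.2, 18.1 and 19.6 CPM in ASC against 22.9, 23.2, 23.3 and 22.7 CPM in sham (log2 fold change -0.31, edgeR adjusted p = 0.131). The groups were apart for both. Zfp207 (BuGZ), which acts at the mitotic spindle, had a log2 fold change of -0.35 (edgeR adjusted p = 0.113), Zfp281, a regulator of pluripotency, -0.36 (edgeR adjusted p = 0.296; -0.08 with the red cell level as a covariate), and Zfp644, a partner of the methyltransferases G9a and GLP, -0.32 (edgeR adjusted p = 0.137). The other 18 of the 26, at an unadjusted p of 0.05 or more, include the transcription factors Zfp143, Zfp148 and Zfp384, the ribosome collision sensor Zfp598 and the developmental repressor Zfp568. Zfp445, which keeps imprints and was picked with its values in view, had 85.5, 86.2, 97.7 and 85.6 CPM in ASC against 115, 106, 125 and 102 CPM in sham, apart between the groups but not past the threshold (log2 fold change -0.34, edgeR adjusted p = 0.118).

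By CPM per kilobase of exon, the most abundant members were Zfp185 (18.5), Zfp706 (17.7), Zfp219 (16.8), Zfp207 (16.5), Zfp664 (15.5) and Zfp91 (15.5), none with a KRAB pattern. Zfp185, an actin-associated LIM domain protein without a C2H2 finger, had a log2 fold change of -0.03 (edgeR adjusted p = 0.918), and Zfp706, a protein of 76 residues, 0.04 (edgeR adjusted p = 0.905). The direction of both turned under some settings, among them single libraries left out. Zfp219 was at -0.17 (edgeR adjusted p = 0.396) and Zfp664 at -0.25 (edgeR adjusted p = 0.291). Zfp91, a regulator of NF-kappaB signalling, had 193, 160, 165 and 148 CPM in ASC against 139, 155, 141 and 147 CPM in sham, a positive value with overlap between the groups (log2 fold change 0.20, edgeR adjusted p = 0.391).

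A list of proteins that KRAB proteins recruit or work with, and of other silencing factors of that pathway, was measured in the same libraries. None of the 39 listed genes passed the threshold in edgeR. At unadjusted p under 0.05, 4 were lower (10.3%) and 1 higher, beside 7.9% lower and 6.82% higher of all genes. Their median log2 fold change was -0.049, with 25 negative (64.1%). All ASC libraries lay below all sham libraries for 5 of the 39 (12.8%), beside 5.67% of all genes, and above them for 0, beside 3.39%. Trim28, the co-repressor itself, had 132, 123, 108 and 116 CPM in ASC against 134, 124, 127 and 105 CPM in sham, with groups that overlap throughout (log2 fold change -0.03, 95% interval -0.25 to 0.19, edgeR adjusted p = 0.919). Setdb1 had 32.9, 35, 35.6 and 31.1 CPM in ASC against 43.4, 42.5, 44.9 and 35 CPM in sham (log2 fold change -0.30, SE 0.10, edgeR adjusted p = 0.187), overlapping at the lowest sham library. Cbx5, the heterochromatin protein HP1 alpha, had a log2 fold change of -0.22 (edgeR adjusted p = 0.292), with groups that do not overlap. Chd4, the remodelling enzyme of the NuRD complex, was at -0.03 (edgeR adjusted p = 0.93). Smarcad1, a remodelling enzyme that binds Trim28, was nearest to the threshold with 24.2, 23.7, 21.5 and 20.9 CPM in ASC against 26.1, 32.7, 30.7 and 30.1 CPM in sham (log2 fold change -0.40, SE 0.10, edgeR adjusted p = 0.0798), and was called by DESeq2 but not by limma-voom. The interval for Trim28 allows a change of either sign, so these data do not show that it was the same in both groups.

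Promoter windows were found in RefSeq for 179 of the 220 genes, in 218 windows, and for 10 of the 12 called genes, in 11 windows. The ETS core CCGGAA, searched on both strands, was present in 34.9% of the members' windows, in 44% of those of KRAB members and in 27.1% of those without KRAB, beside 25.1% for the promoters of tested genes and 14.9% of all 32851 windows of the table. KRAB promoters were also poorer in GC, with a median of 53.2% and 12 CpG per window, against 62.3% and 21 for members without KRAB and 60.7% and 20 for tested genes. Among called genes 5 of 11 windows (45.5%) held the core, shown here with its flanks and the genome position, the core in capitals and written in the direction of the gene.
Zfp120, 173 bases before the start (chr2:150136834-150136863, minus strand): atttctacagacCCGGAAaaggactggcct
Zfp120, 12 bases before the start (chr2:150136673-150136702, minus strand): gaaggcgggctcTTCCGGgtgcgatcttgc
Zfp110, 45 bases before the start (chr7:12834704-12834733, plus strand): taacaccagcacTTCCGGcccacccccttg
Zfp60, 24 bases before the start (chr7:27731373-27731402, plus strand): aagtaaagcaacTTCCGGtgccctggcggc
Zfp84, after the start (chr7:29768577-29768601, plus strand): ggaaagaggttgTTCCGGatcatct
Zfp760, 118 bases before the start (chr17:21707611-21707640, plus strand): gaacctacgtaaCCGGAAcctatctataat
Zfp760, 57 bases before the start (chr17:21707672-21707701, plus strand): aggagggaggggCCGGAAaaccctccattc
A match is a run of letters and not a measured binding site. KRAB members with the core had a median log2 fold change of -0.393 (41 genes, 5 called) and those without it -0.339 (48 genes, 5 called). Members without KRAB were at -0.203 with the core (28 genes) and -0.145 without it (62 genes).

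Of the other motifs, also searched on both strands, the YY1 letters AAGATGGC stood in 5.96% of the members' windows, beside 3.99% for tested genes, the NRF1 motif in 3.67%, beside 1.87%, and the motif of Zfp143 in 3.21%, beside 2.02%. The AP-1 letters TGACTCA (3.21%, beside 3.68% for tested genes), the CRE letters TGACGTCA (2.75%, beside 2.88%) and the EGR letters GCGTGGGCG (0.459%, beside 1.13%) were close to or under the share in tested genes. Over all windows of the table the shares were 2.75% for YY1, 0.971% for NRF1, 1.01% for Zfp143, 5.2% for AP-1, 1.79% for CRE and 0.612% for EGR. Among the 11 windows of called genes, the NRF1 motif stood in 1, that of Zfp719, and the other 5 motifs in 0. Only matches to each motif's fixed letters were counted, so sites that depart from them are missed.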

How the data were processed

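RNA-seq of 8 mouse lens capsule libraries was used. The authors deposited whole-number read counts per gene, not normalized, in 1 table, and all its count columns were used. The submitters' processing notes name CASAVA and fastp, HISAT2 2.0.5, and featureCounts 1.5.0-p3. No genome build, annotation or strand setting is named in the labels or headers. For this reason gene coordinates of the counts are not printed, and counts of overlapping, antisense or near-identical genes may mix. Precision refers to reads, not molecules.

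Counts were filtered with filterByExpr, scaled by TMM and tested with edgeR 4.0.16 (robust quasi-likelihood, R 4.3.3) with Benjamini-Hochberg adjustment over all 15857 genes. Levels are TMM-scaled CPM, apart from values set against the limit, abundance classes and CPM per kilobase, which use unscaled CPM. The SE is the log2 fold change divided by the square root of F. DESeq2 1.42.0 and limma 3.58.1 were alternatives. On simulated data the steps recovered 13% of 1.5-fold and 60% of 2-fold changes, and 5.2% of the genes called were false. A missing call therefore does not show that a gene was unchanged.

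Symbols matched 54409 of 54532 identifiers. KRAB, SCAN and finger patterns came from translations of GENCODE mouse release 21 (longest protein for finger number), in place of a protein table that the design had foreseen and that was not used here. Fingers were counted with 12 residues between the second cysteine and first histidine. Promoters are RefSeq's.

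The members and lists were chosen with earlier results of these data known. Genes named are the 4 markers, every called member, the 6 most abundant per exon length, the 3 on each side of the limit, the 5 extremes at each end, a list of genes with known roles, Trim28, Setdb1, Cbx5 and Chd4, and neighbouring genes by position. Gm12258, Smarcad1, Zfp324, Zfp629 and Zfp445 were picked with their values in view.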

Additional observations from a re-analysis of the deposited data

Results flagged for a closer look

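In 4 of 72 groups of 4 libraries examined for the named genes, 1 library stood apart from the other 3, a share that chance gives in about 1 of 20 groups. Zfp281 was at 12.1 CPM in ASC 4, against 16.8 to 17 CPM in the other ASC libraries. Zfp638 was at 44.4 CPM in ASC 2, against 56.1 to 58.3 CPM in the others of ASC. Zfp397 was at 32.5 CPM in sham 4, against 41.9 to 43.1 CPM in the other sham libraries. Zfp532 was at 16.8 CPM in sham 3, against 14 to 14.3 CPM in the others of sham.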

How the results depend on the processing

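The median log2 fold change of the 220 Zfp genes was negative under every alternative run, and in the 21 other fits it lay between -0.275 and -0.218 from the median of all genes. It was -0.379 with library totals alone, where the median of all genes was -0.116, and -0.188 for the 146 members at a mean of at least 10 CPM. The count of 12 lower genes was 36 in DESeq2, 31 with no low-count filter, 3 at an adjusted p under 0.01, 3 to 13 with 1 library left out, 0 with the red cell level as a covariate and 2 with the lens fibre or the pigment cell level, the last 3 chosen after the data were seen. Over all genes, 593 were called in either direction in DESeq2 and 712 with no low-count filter, in place of 62 lower and 100 higher. The count over all genes at an adjusted p under 0.01 is not given here. The count of higher genes was 1 in DESeq2 and 1 with no low-count filter, Zfp628 in both. The count of genes called from the list of KRAB partners and other silencing factors was likewise 1 in both, Smarcad1. The cause was not tested. The fit with the replicate number as a block called 8 lower, all among the 12, with a median of -0.247. Over all genes that fit called 169 in either direction. The labels' numbers are not known to pair the libraries, since the deviations of same-numbered libraries correlated at 0.217, 0.057, 0.214 and -0.09 and 1 of 4 ASC libraries correlated best with its own number.

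Over 36 named genes and 21 alternatives, 637 values kept direction and side of the threshold, 93 lost the call, 12 gained one and 14 turned direction, none of a called gene. Turned values were those of Zfp706 (-0.083 with library totals alone, -0.027 to 0.108 with 1 library left out), Zfp185 (0.069 with the fibre level, 0.018 with the pigment level, -0.09 to 0.013 with 1 library left out), Chd4 (0.103 with the fibre level, -0.1 to 0.016 with 1 library left out), Trim28 (0.005 with the fibre level, -0.1 to 0.013 with 1 library left out), Zfp703 (-0.02 with the pigment level) and Zfp688 (-0.047 with the fibre level). Members near the limit of 5 CPM have the fewest counts, and fold changes there carry the widest errors.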
